A study of Mus musculus with 6 samples.

Results

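Polyamines are small positively charged molecules that cells need to grow, and the transcripts of 10 genes that make, recycle or control them were measured here by RNA-seq. The rule that chose them goes by name and role, in polyamine synthesis, breakdown, antizyme control and hypusination, and uses no measured value. The members were nevertheless chosen with earlier results of these data known. They are *Odc1*, *Amd1*, *Srm*, *Sms*, *Sat1*, *Oaz1*, *Oaz2*, *Azin1*, *Mtap* and *Dohh*, 10 of the 56748 genes counted. All 10 were among the 14936 genes that edgeR's filter on low counts kept for testing.

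The cells were naïve CD4 T cells from wild-type C57BL/6 mice aged 6 to 10 weeks, activated through CD3 and CD28 and held for 72 hr under conditions that favor regulatory T cells (Tregs). Every culture received murine IL-2 at 10 ng/mL, human TGF-β at 1 ng/mL and antibodies to IFNγ and IL-4 at 5 μg/mL each. Antisense oligonucleotides (ASOs) at 10 μM were present from the start, scrambled in 3 cultures and directed at *Pgam* in the other 3. The naïve cells were enriched by negative selection, which removes other cell types, but the cultures were not sorted at the end, so a library may mix Tregs with other CD4 T cells. Total counts were 17588755, 18032805 and 16231127 for replicates 1, 2 and 3 with scrambled ASO, and 16589933, 15860476 and 16803881 for those with *Pgam* ASO. The study calls the replicates biological, and nothing in the sources used here says whether the cultures came from separate animals, so p-values measure only the spread between these libraries.

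In the polyamine pathway, ornithine decarboxylase (ODC, from *Odc1*) makes putrescine from ornithine. S-adenosylmethionine decarboxylase (from *Amd1*) supplies the aminopropyl groups with which spermidine synthase (from *Srm*) and then spermine synthase (from *Sms*) extend the chain. Antizymes bind ODC and send it to the proteasome, and antizyme inhibitor binds antizymes in turn. Spermidine is also the source of hypusine, a modified amino acid of the translation factor eIF5A, and polyamine synthesis is known to rise when T cells are activated.

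The targeted genes were examined first. *Pgam1* was counted 10655, 8847 and 11414 times with scrambled ASO and 10601, 10299 and 11949 times with *Pgam* ASO, and the groups overlapped. *Pgam2* was counted 93, 125 and 46 times and 48, 42 and 44 times in the same order, again with overlap. Neither passed the test, since the quasi-likelihood test of edgeR, its p-values adjusted over all tested genes after Benjamini and Hochberg, gave *Pgam1* a log2 fold change of 0.18 (adjusted p = 0.331) and *Pgam2* one of -0.84 (adjusted p = 0.0854). These counts measure transcripts and not PGAM protein, and the groups are named below by their labels, scrambled and *Pgam*. Of all 31-base stretches in the annotated transcripts of *Pgam1*, 37.1% also occur in other genes, so its counts are uncertain.

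Of the 10 genes, 4 rose and 1 fell with the *Pgam* label at an adjusted p under 0.05, and 5 did not pass. Those that rose were *Srm*, *Azin1*, *Mtap* and *Dohh*, and the one that fell was *Sat1*. Of all 14936 genes tested, 8.03% rose and 9.15% fell by the same test, so 4 of 10 higher lies above the first share and 1 of 10 lower is close to the second. Because the members were chosen with earlier results of these data known, these counts are a description only. The median log2 fold change was 0.23 over the 10 genes and -0.0061 over all tested genes. In 6 of the 10 the labels did not overlap, and the same was true of 39.5% of all tested genes. Levels are given below as CPM, the usual unit of counts scaled to one common library total, after that total was corrected by TMM, edgeR's factor for differences in composition. Fold changes are *Pgam* over scrambled. The share of counts from the mitochondrial genome also moved with the label, at 1.95, 2.12 and 1.93% with scrambled ASO and 1.24, 1.44 and 1.32% with *Pgam* ASO, and its part in the results was not tested.

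**Figure D1:**
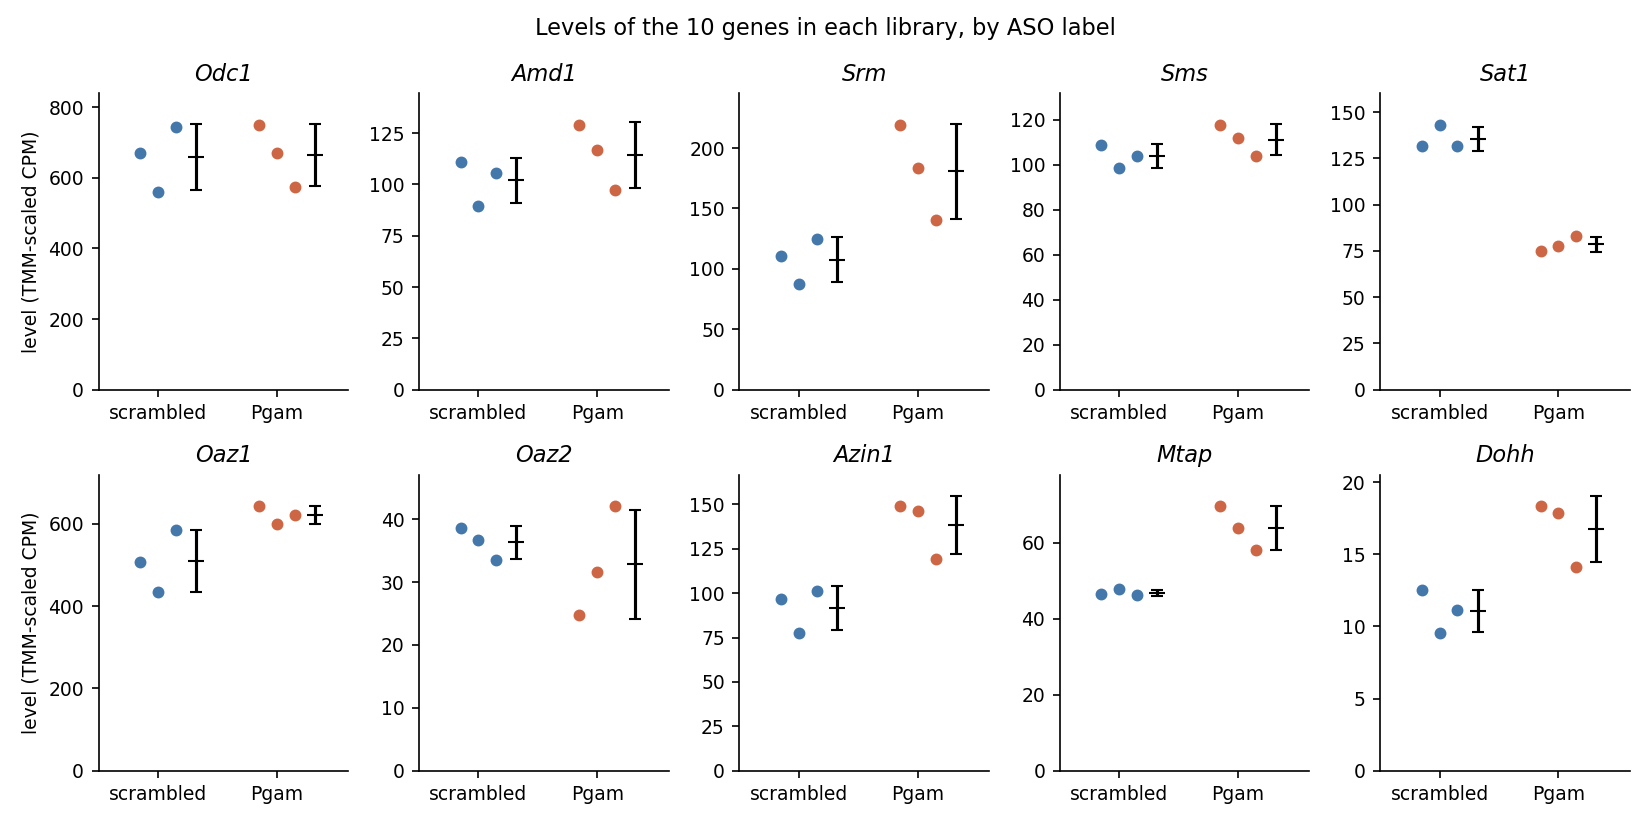
Level of each of the 10 genes in TMM-scaled CPM (vertical axis, from 0) under the scrambled label (blue) and the *Pgam* label (orange), with 1 point per library in the order of replicates 1 to 3 and the mean ± SD (n = 3) in black. The points of the 2 labels are apart for *Srm*, *Sat1*, *Oaz1*, *Azin1*, *Mtap* and *Dohh*, and overlap for *Odc1*, *Amd1*, *Sms* and *Oaz2*.

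*Odc1* (ENSMUSG00000011179), on chromosome 12 from 17544794 to 17551505 in GRCm38, encodes the enzyme that opens the pathway. Its level was 670, 559 and 745 CPM in scrambled replicates 1, 2 and 3, and 749, 670 and 574 CPM in *Pgam* replicates 1, 2 and 3. The groups covered almost the same range, and the means were 658 ± 93.6 and 665 ± 87.8 CPM (SD, n = 3 each). The log2 fold change was 0.01 with a 95% interval from -0.26 to 0.29 (adjusted p = 0.948, edgeR). Its sign turned negative when libraries were scaled by size alone (-0.02), without scrambled replicate 2 (-0.09) and without *Pgam* replicate 1 (-0.08). The interval reaches to changes of 0.29, so the test does not show that *Odc1* was equal in both groups. Of the 31-base stretches of *Odc1*, 31.3% occur elsewhere, mostly in processed pseudogenes, and Kallisto has to divide such reads. Summed with the 8 genes that share at least 10%, its counts were 12242, 10747 and 12387 against 12374, 10715 and 9981.

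The antizymes are made only if ribosomes slip forward by 1 base at a stop codon inside the reading frame, a step that polyamines promote. The site is shown for both antizyme genes because it is the feature through which these 2 transcripts respond to polyamines, in a way that counts of transcripts do not record. It lies in an exon of *Oaz1* at chr10:80828280-80828309 and in an exon of *Oaz2* at chr9:65686257-65686286, on the + strand of GRCm38 in both genes, and was read from GENCODE M21 transcripts. The capitals mark the last codon before the shift and the stop codon. The windows carry the same base at 28 of 30 positions.
Oaz1: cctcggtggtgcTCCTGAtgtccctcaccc
Oaz2: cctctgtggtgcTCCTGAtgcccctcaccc

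*Oaz1* (ENSMUSG00000035242), the main antizyme in most tissues, had a level of 506, 434 and 585 CPM under the scrambled label and 643, 599 and 621 CPM under the *Pgam* label. The groups did not overlap, but scrambled replicate 3 lay just below the lowest of the other label. The log2 fold change was 0.29 with a 95% interval from 0.05 to 0.53 (adjusted p = 0.0869, edgeR), which does not pass the threshold over all genes. It passed with no filter on low counts (adjusted p = 0.022) and with scrambled replicate 3 left out (adjusted p = 0.0174). The fit with no filter also gave *Srm* an adjusted p of 3.57e-11 (edgeR, 0.0238 with the filter), so passes in that fit are weak support. With any other library left out, the adjusted p of *Oaz1* ran from 0.126 to 0.218. Other genes hold 24.1% of its 31-base stretches, chiefly the pseudogene *Oaz1-ps*. *Oaz2* (ENSMUSG00000040652), a second antizyme, had a level of 38.7, 36.7 and 33.5 CPM under the scrambled label and 24.8, 31.6 and 42.1 CPM under the *Pgam* label. The libraries labelled *Pgam* ASO thus lay on both sides of the others, with a coefficient of variation of 26.4% against 7.15%. Its log2 fold change was -0.14 (95% interval -0.52 to 0.23, adjusted p = 0.575, edgeR), and without *Pgam* replicate 1 it was 0.03. Other genes hold 12.15% of the 31-base stretches of *Oaz2*.

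*Azin1* (ENSMUSG00000037458), on chromosome 15 from 38487427 to 38519266, encodes antizyme inhibitor, a relative of ODC that has lost the enzyme activity and frees ODC by binding antizymes. Its level was 96.5, 77.7 and 101 CPM under the scrambled label and 149, 146 and 119 CPM under the *Pgam* label. All 3 libraries labelled *Pgam* ASO were higher than all 3 others. The mean rose from 91.7 ± 12.3 to 138 ± 16.3 CPM (SD, n = 3 each), a 1.51-fold difference, or 0.59 on the log2 scale with a standard error of 0.12 (adjusted p = 0.0138, edgeR). The call was lost without *Pgam* replicate 2 (adjusted p = 0.0827) and, narrowly, without scrambled replicate 1 (adjusted p = 0.0503). Its paralog *Azin2*, which also encodes an antizyme inhibitor, was far less abundant, with counts of 41, 47 and 70 under the scrambled label and 226, 218 and 210 under the *Pgam* label. The labels were far apart, at 3.06 ± 1.11 against 13.5 ± 0.92 CPM (SD, n = 3 each), and the log2 fold change of 2.14, with a standard error of 0.24, passed (adjusted p = 0.00098, edgeR). The call for *Azin2* held with each library left out in turn, with an adjusted p from 0.000308 to 0.0138.

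Of the enzymes that build spermidine and spermine, *Srm* rose and *Amd1* and *Sms* did not pass. *Srm* (ENSMUSG00000006442), on chromosome 4 from 148591503 to 148594993, encodes spermidine synthase. Its level was 111, 87.5 and 124 CPM under the scrambled label and 219, 183 and 140 CPM under the *Pgam* label. The labels did not overlap, but the libraries labelled *Pgam* ASO were spread widely, and replicate 3 stood nearest to the others. The log2 fold change of 0.75, with a standard error of 0.17, passed (adjusted p = 0.0238, edgeR) and is 1.68-fold. The call was lost without *Pgam* replicate 1 or 2 (adjusted p = 0.0602 and 0.0921) and without scrambled replicate 1 or 2 (adjusted p = 0.0747 and 0.0765).

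*Sms* (ENSMUSG00000071708), on chromosome X from 157443855 to 157492287, encodes spermine synthase and was the steadiest of the enzymes of synthesis. Its level was 109, 98.4 and 104 CPM under the scrambled label and 118, 112 and 104 CPM under the *Pgam* label. The groups overlapped, with coefficients of variation of 5.05% and 6.16% and a log2 fold change of 0.10 (95% interval -0.09 to 0.29, adjusted p = 0.433, edgeR). With a library left out it ran from 0.06 to 0.15. Of the 31-base stretches of *Sms*, 18.8% occur in other genes. Summed with the 1 gene that shares at least 10%, its counts were 2427, 2321 and 2195 against 2474, 2278 and 2303. Its level, also in the ratio of *Srm* to *Sms* below, is therefore uncertain. *Amd1* (ENSMUSG00000075232), on chromosome 10 from 40287458 to 40302186, had a level of 111, 89.5 and 106 CPM against 129, 117 and 97.1 CPM, also with overlap. Its log2 fold change was 0.16 (95% interval -0.10 to 0.43, adjusted p = 0.356, edgeR), and from 0.07 to 0.27 with a library left out. The counts of *Amd1* are uncertain, since 82.8% of its 31-base stretches occur in other genes and 81.9% in the paralog *Amd2*. *Amd2* itself was counted only 37, 30 and 39 times under the scrambled label and 43, 58 and 60 times in the others, so far more reads were assigned to *Amd1*.

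*Sat1* (ENSMUSG00000025283), on chromosome X from 155213132 to 155216449, encodes the acetyltransferase that marks spermidine and spermine for oxidation or export. It was the one gene of the 10 that fell. Its level was 131, 143 and 132 CPM under the scrambled label and 74.9, 77.4 and 83.0 CPM under the *Pgam* label. The gap between the groups was wide beside the spread within them, with means of 135 ± 6.57 and 78.5 ± 4.15 CPM (SD, n = 3 each). The log2 fold change of -0.79, with a standard error of 0.082, passed (adjusted p = 0.000768, edgeR), and the level with scrambled ASO was 1.72 times that with *Pgam* ASO. With each library left out in turn the log2 fold change ran from -0.82 to -0.75 and the adjusted p from 0.000626 to 0.0138, so that *Sat1* passed in all 6.

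*Sat1* and *Sms* are X-linked, and transcripts particular to each sex were present in every library at levels that moved with the label. *Xist*, expressed from the inactive X chromosome of female cells and named here like the Y-linked genes after values were seen, had a level of 46.0, 56.8 and 45.4 CPM under the scrambled label and 77.0, 87.5 and 105 CPM under the *Pgam* label. The summed level of 4 Y-linked genes (*Ddx3y*, *Uty*, *Eif2s3y* and *Kdm5d*) was 302, 347 and 297 CPM against 240, 276 and 259 CPM. The labels did not overlap in either measure. Every library thus held RNA of female and of male cells, so none came from a single animal. *Xist* rose (log2 fold change 0.86, adjusted p = 0.00391, edgeR), and of the Y-linked genes *Kdm5d* alone passed, lower at -0.55 (adjusted p = 0.0223). Their part in the results for *Sat1*, *Sms* and the other genes was not tested.

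The remaining members act beside the main line. *Mtap* (ENSMUSG00000062937), on chromosome 4 from 89137122 to 89181081, encodes the phosphorylase that splits methylthioadenosine, left over by both synthases, into adenine and a sugar phosphate from which methionine is remade. Its level was 46.4, 47.7 and 46.1 CPM under the scrambled label and 69.6, 63.9 and 58.0 CPM under the *Pgam* label. The former agreed closely and all lay below the latter. The log2 fold change of 0.45, with a standard error of 0.093, passed (adjusted p = 0.0142, edgeR) and is 1.37-fold. The call was lost without *Pgam* replicate 1 or 2 (adjusted p = 0.0538 and 0.0805) and without scrambled replicate 1 (adjusted p = 0.0694).

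*Dohh* (ENSMUSG00000078440), on chromosome 10 from 81384428 to 81388352, encodes deoxyhypusine hydroxylase, which completes hypusine on eIF5A. Its level was 12.5, 9.56 and 11.2 CPM under the scrambled label and 18.3, 17.8 and 14.1 CPM under the *Pgam* label. Here too the labels did not overlap, and *Pgam* replicate 3 was the nearest to the other group. The log2 fold change of 0.60, with a standard error of 0.16, passed (adjusted p = 0.0312, edgeR). The call was lost without *Pgam* replicate 1 or 2 (adjusted p = 0.106 and 0.133) and without scrambled replicate 1 or 2 (adjusted p = 0.0685 and 0.0859). The gene model *Gm48551* holds 46.3% of the 31-base stretches of *Dohh*, and the summed counts of both were 232, 183 and 180 against 298, 285 and 242.

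Levels were compared between genes as CPM per kb of exon. Averaged over the 6 libraries, *Oaz1* came first at 221 ± 30.9 and *Odc1* second at 194 ± 23.9 CPM per kb (SD), and their ranges overlapped. *Srm* followed at 90.2 CPM per kb, then *Sat1* at 38.5, *Amd1* at 30.5, *Azin1* at 18.4, *Sms* at 17.9, *Mtap* at 17.1, *Oaz2* at 11.6 and *Dohh* at 6.80 CPM per kb. The order differed between the labels, since *Sat1* at 48.8 came before *Amd1* at 28.8 under the scrambled label and after it, at 28.3 against 32.3, under the *Pgam* label. Likewise *Sms* at 17.3 came before *Azin1* at 14.7 and *Mtap* at 14.5 under the scrambled label, and after them, at 18.5 against 22.1 and 19.8, under the *Pgam* label. Over all 6 libraries *Sat1* overlapped *Amd1*, *Azin1* overlapped *Sms*, *Sms* overlapped *Mtap*, and *Oaz2* overlapped *Dohh*, while *Odc1* and *Srm*, *Srm* and *Sat1*, *Amd1* and *Azin1*, and *Mtap* and *Oaz2* were apart in all 6 libraries. With the length of the longest transcript in place of all exons, *Odc1* (299 CPM per kb) came before *Oaz1* (224 CPM per kb) and *Sms* before *Azin1*, and *Srm* then overlapped *Sat1* and *Mtap* overlapped *Oaz2*. By that length these differences in order between the labels were absent, with *Sat1* before *Amd1* (100 and 31.8 against 58.0 and 35.7 CPM per kb) and *Sms* before *Azin1* and *Mtap* (27.9, 18.8 and 16.7 against 29.9, 28.4 and 22.8 CPM per kb) under both. Others appeared instead. *Sat1* came before *Srm* under the scrambled label (100 against 80.4 CPM per kb) and after it under the *Pgam* label (58.0 against 135). *Oaz2* at 19.7 came before *Azin1* and *Mtap* under the scrambled label, and after them, at 17.8, under the *Pgam* label.

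Ratios of levels per kb were taken within each library for 3 pairs of opposing or successive steps. *Odc1* over the summed antizymes was 0.932, 0.902 and 0.912 under the scrambled label and 0.848, 0.804 and 0.657 under the *Pgam* label. All 3 of the latter were lower, and the mean log2 ratio was lower by 0.26, or by 0.15 without *Pgam* replicate 3. *Azin1* over the summed antizymes was 0.0731, 0.0682 and 0.0673 against 0.0917, 0.0954 and 0.0743, with every library labelled *Pgam* ASO higher and a log2 difference of 0.32. The ratio of *Srm* to *Sms* was 3.82, 3.34 and 4.50 against 7.00, 6.15 and 5.07, again with no overlap and a log2 difference of 0.64. Each of the 3 ratios had p = 0.1 in an exact permutation test, two-sided, which is the smallest that 3 libraries against 3 allow, and 0.1 after adjustment over the 3, so none could pass 0.05. The ratios say nothing of the proteins, which were not measured here.

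**Figure D2:**
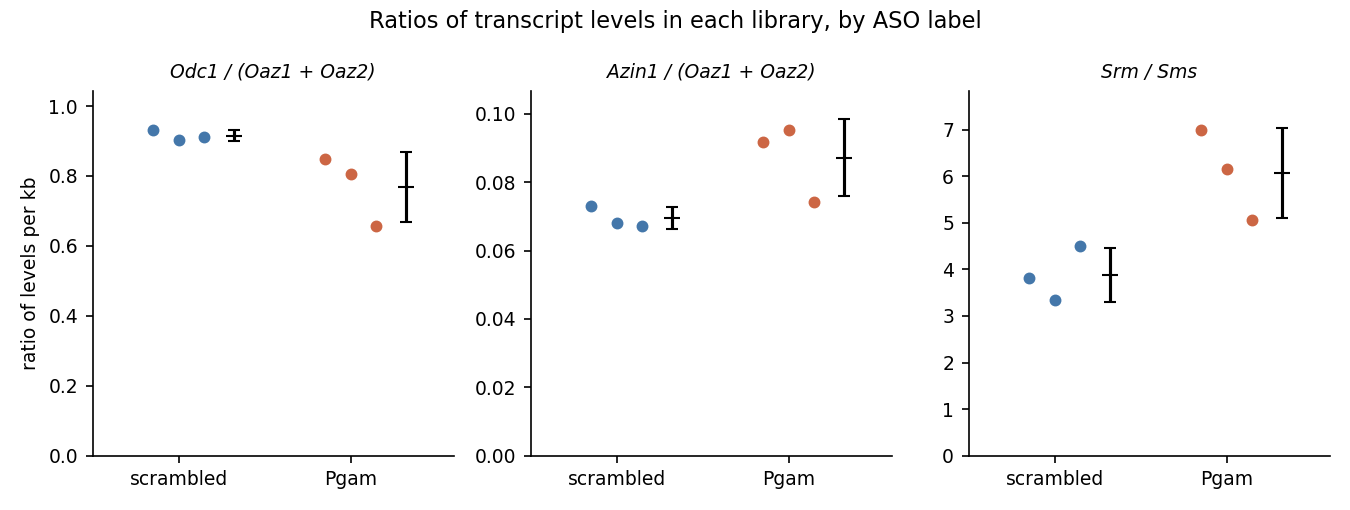
Ratios of transcript levels (CPM per kb of exon) in each library, from 0 on the vertical axis, for *Odc1* over *Oaz1* plus *Oaz2*, *Azin1* over the same sum, and *Srm* over *Sms*. Points are libraries in the order of replicates 1 to 3 and black marks give the mean ± SD (n = 3), with *Odc1* to antizymes at 0.915 ± 0.016 for scrambled ASO and 0.769 ± 0.10 for *Pgam* ASO.

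Beyond the 10 genes, 27 neighbors in the pathway were listed by role, also with earlier results of these data known. Of the 27, 21 had enough counts to be tested. Of these 21, 9 rose and 0 fell at an adjusted p under 0.05 by edgeR, beside 8.03% and 9.15% of all tested genes. Their median log2 fold change was 0.35. At an unadjusted p under 0.05 it was 14 higher and 4 lower, beside 17.2% and 17.7% of all tested genes. DESeq2 had 11 higher, limma-voom 8 and edgeR with libraries scaled by size alone 6, also with 0 lower. Of all 14936 tested genes, DESeq2 called 1537 higher and 1656 lower, limma-voom 1171 and 1351, and size alone 1074 and 1456. With no filter on low counts, edgeR tested 26 neighbors and had 12 higher and 1 lower, *Smox*. That fit called 1832 higher and 1900 lower of all 28512 genes. Among paralogs of the members, *Azin2* rose as described, while *Amd2*, at 0.70 (adjusted p = 0.1), and the antizyme gene *Oaz3*, at -1.39 with at most 16 counts in any library (adjusted p = 0.0673), did not pass. *Eif5a2*, which encodes a second eIF5A, rose by 0.54 on the log2 scale (adjusted p = 0.0164). *Dhps*, whose enzyme places deoxyhypusine before the step of *Dohh*, rose by 0.51 on the log2 scale (adjusted p = 0.0357, edgeR). Its counts were 418, 378 and 466 under the scrambled label and 609, 546 and 519 under the *Pgam* label, so that both enzymes of hypusination were higher. The substrate *Eif5a* did not pass, at 0.37 (adjusted p = 0.0864), or 0.23 without scrambled replicate 2, though it did with no filter on low counts (adjusted p = 0.00163) and without scrambled replicate 3 (adjusted p = 0.0169).

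Methionine salvage, the route onward from *Mtap*, had 2 of 4 genes higher, *Adi1* at 0.49 (adjusted p = 0.0126) and *Mri1* at 0.29 (adjusted p = 0.0428, edgeR). The same route's *Apip* (0.36) and *Enoph1* (0.49) did not pass, and neither did *Mat2a* (0.34) and *Mat2b* (-0.29) of S-adenosylmethionine supply. *Enoph1* and *Mat2a* did pass by DESeq2 (adjusted p = 0.0427 and 0.0377), with no filter on low counts (0.00396 and 0.0062) and without *Pgam* replicate 3 (0.0217 and 0.0202). On the side of ornithine and arginine, *Oat*, whose enzyme links ornithine with glutamate, had 0.35 (adjusted p = 0.0471), and *Slc7a1*, an importer of arginine and ornithine, 0.36 (adjusted p = 0.0486). Among transporters, *Slc3a2*, the heavy chain of several amino acid carriers, rose by 0.78 (adjusted p = 0.00235) and *Atp13a3*, a polyamine transporter, by 0.33 (adjusted p = 0.0357). *Atp13a2*, which encodes another, differed the other way at -0.20, without overlap, and did not pass (adjusted p = 0.107). *Slc3a2* was counted 1803, 1601 and 1789 times under the scrambled label and 2967, 2676 and 2678 times in the others. Of the 9, *Azin2* and *Slc3a2* passed with each library left out, and they alone without *Pgam* replicate 2. *Adi1* was the only other to pass without scrambled replicate 1 or without *Pgam* replicate 1, which left 3 of the 21 called, and without scrambled replicate 2 *Adi1* and *Eif5a2* passed beside them, which left 4 higher. *Mri1* was lost without scrambled replicate 3 (adjusted p = 0.053, edgeR) and *Oat* without *Pgam* replicate 3 (adjusted p = 0.0592), while *Slc7a1*, *Dhps* and *Atp13a3* passed without either of these. *Oat*, *Slc7a1* and *Mri1* also missed the threshold with libraries scaled by size alone, at adjusted p = 0.0535, 0.0503 and 0.0529, and *Slc7a1* by limma-voom (0.0534) and with at least 10 counts in every library (0.051).

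**Figure D3:**
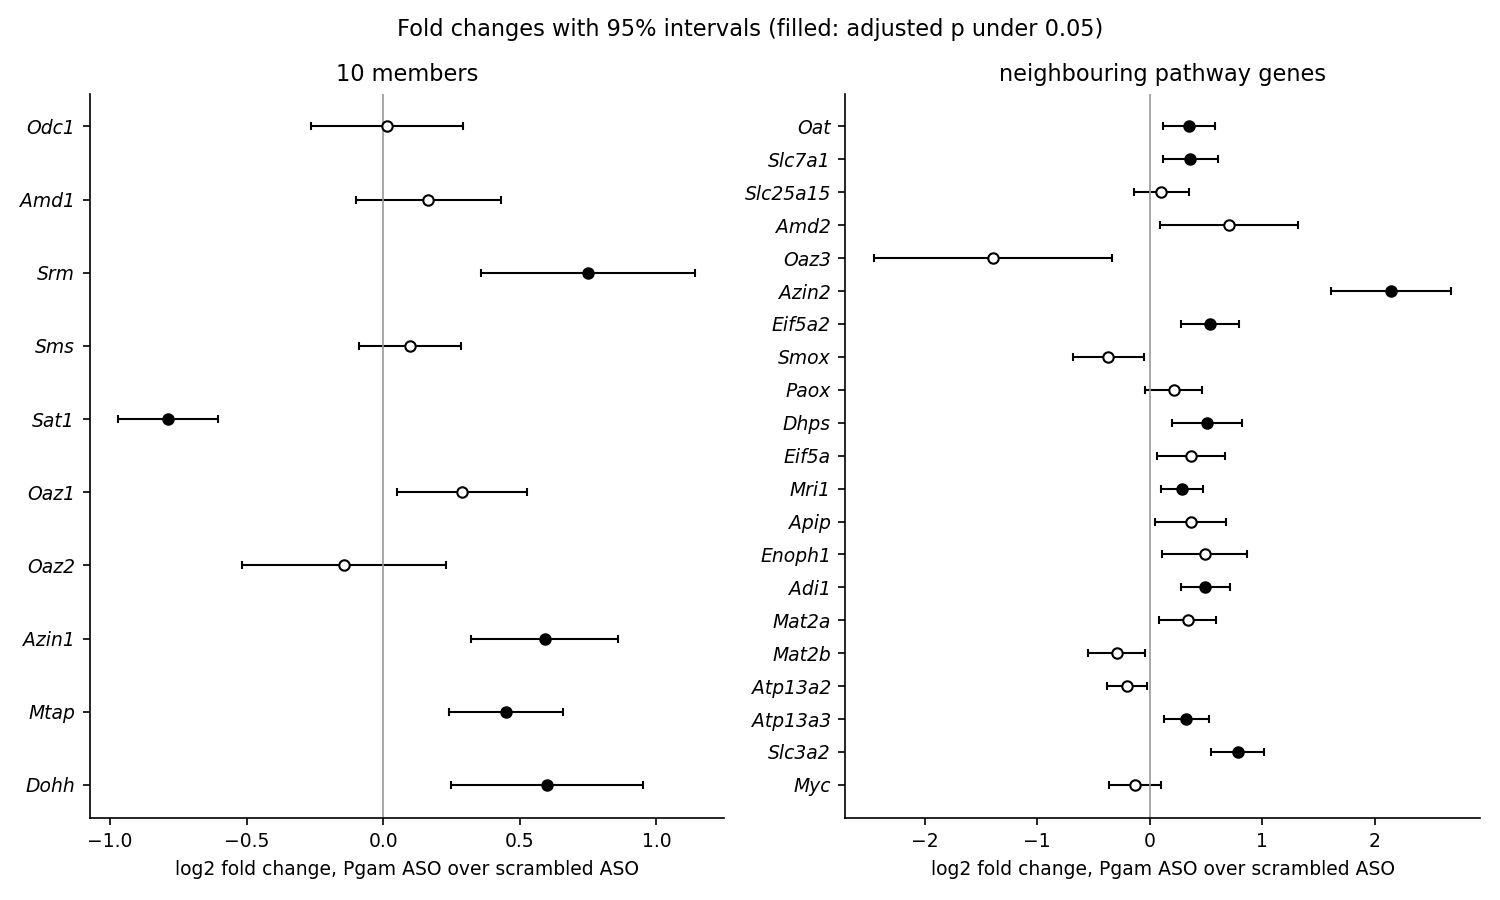
Log2 fold change of *Pgam* over scrambled label (horizontal axis) with its 95% interval, for the 10 genes and for the 21 tested pathway neighbors. Points are filled at an adjusted p under 0.05, 5 among the 10 genes and 9 among the neighbors, and *Sat1* is the one filled point to the left of 0.

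Breakdown beyond *Sat1* was less clear. *Smox*, which encodes spermine oxidase, had counts of 1315, 1196 and 1585 under the scrambled label and 1003, 880 and 1093 under the *Pgam* label. After scaling the groups overlapped, and its log2 fold change of -0.37 did not pass (adjusted p = 0.0956, edgeR), though it did with no filter on low counts (adjusted p = 0.0103) and without scrambled replicate 2 (adjusted p = 0.0332). Without scrambled replicate 3 it was -0.18 (adjusted p = 0.255). *Paox*, for the oxidase that acts on acetylated polyamines, did not pass either, at 0.21 (adjusted p = 0.215). *Myc*, whose protein is a known activator of *Odc1*, had a level of 289 ± 32.7 CPM against 264 ± 22.1 CPM (SD, n = 3 each), and at -0.13 it did not pass (adjusted p = 0.406).

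Protein-coding genes whose 6 values lay nearest to those of *Odc1*, by Euclidean distance of log2 CPM centered on each gene's own mean, included *Syngr2* (distance 0.0843), *Tmem70* (0.103), *Pla2g12a* (0.104) and *Grasp* (0.122). These distances describe 6 libraries only.

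Promoter windows from RefSeq (GRCm38.p6), each with 250 bases before and 50 after a start, were matched by symbol for 8 of the 10 genes, all but *Srm* and *Azin1*. They were searched for the E-box CACGTG, the sequence that MYC and MAX bind, which reads the same on both strands. It occurred in windows of 2 of the 8 genes, *Sms* and *Dohh*. Of all 32851 windows 7.15% held it, which is a share of windows and not of genes. In 1 of the 2 windows of *Sms* it begins 196 bases before the start, at chrX:157492466-157492495 on the - strand, and in *Dohh* at base 3 after the start, at chr10:81384424-81384453 on the + strand. The 30 bases around each are shown, with the E-box in capitals, because they are the only matches among these genes. Of the 2 genes *Dohh* rose and *Sms* did not pass, and a match is a description of the letters and not of binding.
Sms: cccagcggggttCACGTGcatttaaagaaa
Dohh: gcccagcatggtCACGTGgccatcaagatg

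The labelled cell type was checked against its markers. The summed level of 6 CD4 T cell genes, led by *Cd4*, was 2265, 2394 and 2140 CPM under the scrambled label and 1896, 1962 and 2106 CPM under the *Pgam* label, with 1 of 6 genes, *Trac*, lower by edgeR. The 5 Treg genes summed to 2911, 2807 and 3155 CPM against 3599, 3622 and 3236 CPM, most of it *Il2ra*, which rose, while *Foxp3* and *Ikzf2* fell. *Foxp3*, which defines Tregs, was counted 5005, 6862 and 3587 times against 1444, 1695 and 2212 times. Because these are bulk cultures, fewer cells of a kind and less RNA of a gene in each cell cannot be told apart for *Sat1* or any other gene here.

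Markers of other cells were present too. Of B cell genes, *Ighm* had a level of 320, 447 and 216 CPM against 75.6, 111 and 142 CPM and fell (adjusted p = 0.0282, edgeR), while *Cd79a*, *Cd79b* and *Ms4a1* did not pass. The 2 CD8 T cell genes summed to 11.3, 13.5 and 10.8 CPM against 14.6, 10.9 and 15.7 CPM, led by *Cd8b1*, with *Cd8a* higher. Natural killer genes summed to 5.40, 9.88 and 3.22 CPM against 1.06, 1.48 and 1.89 CPM, nearly all of it *Klrd1*, which fell, with *Klrb1c* at 0 throughout. The 5 mast cell and basophil genes summed to 6.36, 7.29 and 7.37 CPM against 5.03, 5.45 and 5.74 CPM, led by *Kit*, which fell. *Cpa3* of this list differed the other way, at 0.957, 1.51 and 0.744 CPM against 2.55, 2.25 and 2.13 CPM, and did not pass (adjusted p = 0.0526, edgeR), and *Mcpt8*, too low to be tested, was counted 0, 2 and 3 times against 16, 11 and 5 times. Myeloid genes, led by *Cd68*, summed to at most 8.70 CPM and erythroid genes, led by *Alas2* and with *Hba-a2* at 0, to at most 2.70 CPM in any library. Their part in the results for the 10 genes was not tested.

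Cycling cells make more polyamines, so genes of the cell cycle were counted beside the 10. Of 11, 5 rose by edgeR and 6 did not pass, where 8.03% of all tested genes rose. The 5 were *Mcm2*, *Mcm3*, *Mcm5*, *Cdk1* and *Ccnb1*, with log2 fold changes from 0.41 to 0.44. The log2 fold change was above 0 in 10 of the 11, as in 7378 of all 14936 tested genes. In 10 of the 11 the labels did not overlap, beside 39.5% of all tested genes. The most abundant of the 11, *Mki67*, had a level of 1363 ± 77.4 CPM against 1360 ± 57.1 CPM (SD, n = 3 each). The summed level was 5351, 4592 and 5542 CPM under the scrambled label and 6064, 6274 and 5918 CPM under the *Pgam* label, without overlap, and its part in the rise of *Srm*, *Azin1*, *Mtap* and *Dohh* was not tested.

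**Figure D4:**
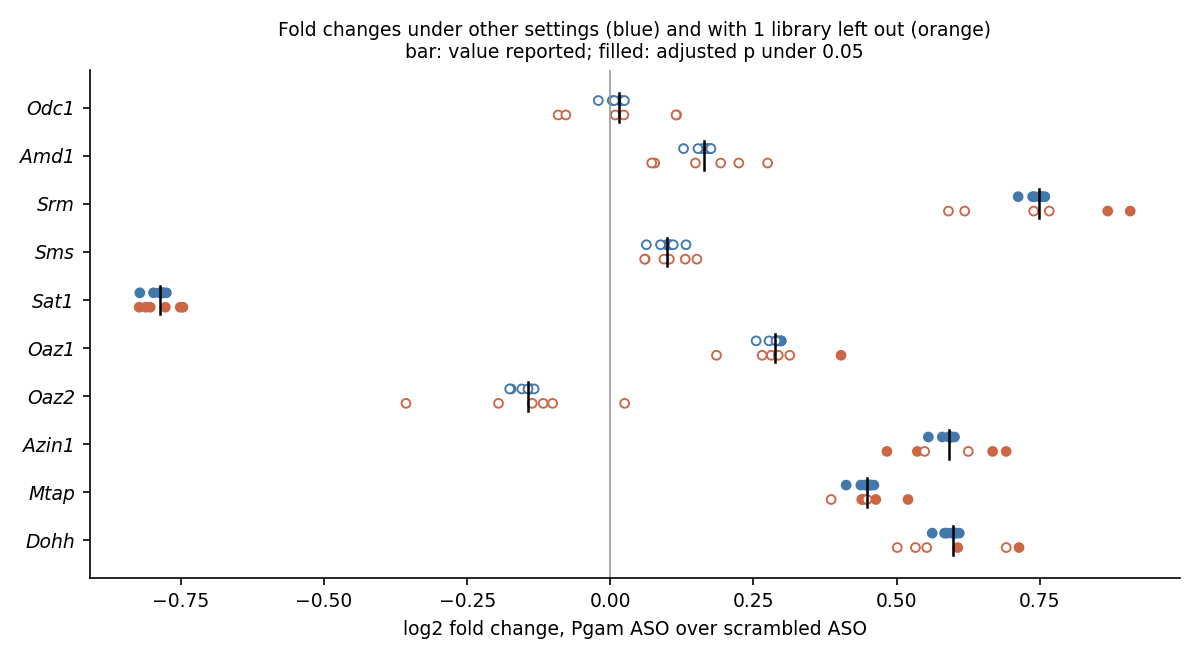
Log2 fold change of each of the 10 genes (horizontal axis) under 7 other tools, scalings, filters and summed counts (blue) and with each of the 6 libraries left out (orange), beside the reported value (black bar). Filled points have an adjusted p under 0.05, as all points of *Sat1* do, while *Odc1* and *Oaz2* have points on both sides of 0.

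Across these settings the genes that passed differed in how much they rested on single libraries. *Sat1* passed under the 7 other tools, scalings, filters and summed counts and in all 6 fits with a library left out. *Srm*, *Azin1*, *Mtap* and *Dohh* also passed under those 7. With a library left out, *Azin1* passed in 4 of 6 fits, *Mtap* in 3, and *Srm* and *Dohh* in 2 each, although each log2 fold change stayed above 0, from 0.39 at the lowest for *Mtap* to 0.91 at the highest for *Srm*. Without *Pgam* replicate 2 or scrambled replicate 1, 0 of the 10 genes were called higher by edgeR, with 5 and 4 of them higher at an unadjusted p under 0.05, beside 11.5% and 12.5% of all genes tested in those fits. In those fits 391 and 620 genes passed over the whole table, against 2565 with all 6 libraries.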

How the data were processed

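RNA-seq libraries from 6 cultures were compared, 3 per label. The authors deposited estimated counts per Ensembl gene from Kallisto, as whole numbers and not normalized, and the submitters' processing notes name GRCm38. The Kallisto version, annotation and use of strand are not given in the sources used here, so reads of antisense genes cannot be told apart. Sharing of 31-base stretches between genes was measured in GENCODE M21 transcripts, which gave coordinates and hold 52125 of the 56748 listed genes; the others, the most counted gene among them, have no entry there. Totals ran from 15860476 to 18032805 counts, and low genes are measured least precisely. No library pair agreed within sampling noise.

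Counts were tested in R 4.3.3 with edgeR 4.0.16 (filterByExpr defaults, TMM, robust quasi-likelihood test, two-sided, Benjamini-Hochberg adjustment over 14936 genes, threshold 0.05, 95% intervals). The code was tested on simulated data, where edgeR and limma-voom kept false calls close to the threshold and DESeq2 made more than its threshold allows; the limit set for DESeq2 in that test was widened after this was seen. Ratios were compared in scipy 1.17.1. Alternatives were DESeq2 1.42.0, limma-voom 3.58.1, RLE factors, library size alone, no filter, a filter of 10 counts in each library, a replicate block, counts summed with genes sharing 10% or more of the stretches, the longest transcript as gene length, and each library left out.

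The members and lists were chosen with earlier results of these data known. Genes named were the 10 members, *Pgam1* and *Pgam2*, tested pathway neighbors that passed, those of the 5 nearest to *Odc1* (prior count 2) that are reported, and listed markers by sum and count; a few genes these rules name are not reported here. *Xist*, the Y-linked genes, neighbors that did not pass and single markers were named after their values were seen.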

Additional observations from a re-analysis of the deposited data

How the results depend on the processing

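For the 10 genes, DESeq2, limma-voom, RLE factors, the filter of 10 counts and summed counts changed no call and no sign. No filter brought *Oaz1* past the threshold. Values near 0 turned sign. *Odc1* was at -0.021 with library size alone, -0.091 without scrambled replicate 2 and -0.078 without *Pgam* replicate 1, and *Oaz2* at 0.025 without *Pgam* replicate 1. With a library left out they ran from -0.091 to 0.116 and from -0.357 to 0.025, and the cause was not tested. With each library left out, between 1 and 6 of the 10 genes passed, 0 to 5 of them higher and 1 lower. Over all genes the count ran from 391 to 3484 (160 to 1711 higher, 231 to 1773 lower), and over pathway neighbors from 2 to 10 (2 to 10 higher, 0 to 1 lower). Such fits have fewer libraries. With no filter, 1832 genes were higher and 1 pathway neighbor was lower, with more genes tested. In that fit the standard errors of *Odc1*, *Amd1*, *Srm*, *Azin1* and *Sat1* all lay from 0.098 to 0.104, against 0.082 to 0.174 in the main fit. Its extra calls are therefore weak support.

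Equal replicate numbers did not pair the libraries, since deviations from group means correlated across genes at -0.24 to 0.053 for equal numbers and -0.25 to 0.28 for different ones. Fitted with a block for the number, 1235 genes passed (480 higher, 755 lower), 4 pathway neighbors (all 4 higher, without *Dhps*, *Oat*, *Slc7a1*, *Mri1* and *Atp13a3*) and 4 of the 10 genes, with *Dohh* at an adjusted p of 0.0618 (0.0041 to 0.0358 over the other settings with all 6 libraries). The 3 ratios kept their direction with the longest transcript, under the block and with each library left out. Much of this was fixed beforehand. The block leaves the mean difference of balanced groups unchanged. Ratios without overlap between the labels cannot turn when a library is left out. A change of length scales *Srm* over *Sms* alike in every library. Depth limits low genes most, and *Dohh* had at least 177 counts in every library.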
